A study of Mus musculus with 28 samples.

Results

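Keratin 18 (Krt18), a filament protein of simple epithelia, stood at 0.191 ± 0.137 CPM (read counts scaled to library size) in the tibialis anterior muscle of wild-type (WT) mice and at 23.1 ± 18.6 CPM in Dnm2 S619L/+ muscle, both on placebo (SD, n = 4 each). It is described here with its partner Krt8, the related keratin Krt19, and the intermediate filament genes of muscle and its neighbouring cells, Des, Vim, Nes, Synm, Sync and Lmna. These 9 genes, of 55359 gene identifiers present in both deposited count tables, were chosen by name around Krt18, and Krt18 itself was picked for its rise in Dnm2 S619L/+ against WT muscle on placebo in these same mice. The contrast of those 2 groups is therefore given below as a description, with no test. In it Krt18 had the largest log2 fold change, 7.23, among the 1808 genes whose mean log2 CPM was above 1 and whose 4 mutant mice all lay above the 4 WT mice, and the next gene, Gm4841, had 6.48. Over all 15439 genes tested, low genes included, Krt18 was number 4.

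Intermediate filaments are rope-like polymers that give cells mechanical strength. Keratins assemble as pairs of 1 type II and 1 type I protein, and Krt8 is the type II partner of the type I keratins Krt18 and Krt19 in simple epithelia. In the muscle fiber the main filament protein is desmin (Des), which surrounds the Z-discs and ties them to one another, to the nucleus and to the cell membrane. Synemin (Synm) and syncoilin (Sync) are muscle proteins of the same superfamily that bind desmin and the dystrophin-associated complex. Nestin (Nes) marks immature and regenerating fibers as well as the neuromuscular and myotendinous junctions, vimentin (Vim) belongs to fibroblasts, endothelium, leukocytes and myoblasts, and lamins A and C (Lmna) line the inside of the nuclear envelope.

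Poly(A) RNA of the tibialis anterior was sequenced from 28 mice of 8 weeks on the C57BL/6N background, in 7 groups of 4. In cohort G, WT mice and mice carrying 1 copy of the dynamin 2 mutation S619L (Dnm2 S619L/+) received placebo or a diet with tamoxifen, a selective estrogen receptor modulator. In cohort F, Bin1 mck-/- mice, in which Bin1 is deleted by a Cre recombinase under the muscle creatine kinase promoter, received placebo or tamoxifen, and WT mice received placebo, so WT mice on tamoxifen were compared in cohort G alone. Both models are studied as centronuclear myopathies, and the comparisons ask how far each model departs from WT muscle and what tamoxifen changes. The library input and fragmentation time were 300 ng and 2 min in cohort G and 350 ng and 8 min in cohort F, so cohort, model and protocol cannot be told apart and each cohort was fitted on its own.

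Reads assigned to genes numbered 15586333 to 109710886 per mouse in cohort G and 24671835 to 35136327 in cohort F. Bin1 was at 521 to 556 CPM in cohort F WT mice and at 36.1 to 62.1 CPM in the 8 Bin1 mck-/- mice, while the Dnm2 mutation is a single amino acid change that read counts cannot check. The 5 muscle fiber markers (Acta1, Ckm, Myh4, Tnnt3 and Mb) summed to 62325 CPM or more in every mouse. Mitochondrially encoded genes took 19.6 to 25.7% of reads in cohort G WT mice on placebo and 13.6 to 17.1% in Dnm2 S619L/+ mice on placebo, and no member's call changed when they were left out. The labels give no sex. Xist was above 10 CPM in all 4 Dnm2 S619L/+ mice on tamoxifen and in 2 of 4 mice of each other cohort G group, and with Xist status as a covariate, an alternative chosen after seeing the data, no member's call changed. The p-values measure the spread between these mice, and differential calls are edgeR quasi-likelihood tests with Benjamini-Hochberg adjustment over all genes tested, at a threshold of 0.05.

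Krt8 and Krt18 lie on chromosome 15 on opposite strands, and their upstream sequences are shown, with that of Des for the main muscle filament, because the keratin pair appeared together in mutant muscle while Des was abundant in every mouse. Each is the 250 bases before the annotated start in RefSeq (assembly GRCm38.p6), 5′ to 3′ on the gene's strand: chr15:102004343-102004592 (minus strand) for Krt8, chr15:102027966-102028215 (plus strand) for Krt18 and chr1:75360042-75360291 (plus strand) for Des. Entries of the RefSeq promoter table used here matched 8 of the 9 members, all but Krt19. Capitals mark E-boxes, CANNTG, the recognition word of basic helix-loop-helix factors such as the myogenic regulators.
Krt8: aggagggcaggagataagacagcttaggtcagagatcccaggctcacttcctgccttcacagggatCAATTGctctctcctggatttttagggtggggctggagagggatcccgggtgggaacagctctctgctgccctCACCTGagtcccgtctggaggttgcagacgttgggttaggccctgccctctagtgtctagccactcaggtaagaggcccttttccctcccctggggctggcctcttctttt
Krt18: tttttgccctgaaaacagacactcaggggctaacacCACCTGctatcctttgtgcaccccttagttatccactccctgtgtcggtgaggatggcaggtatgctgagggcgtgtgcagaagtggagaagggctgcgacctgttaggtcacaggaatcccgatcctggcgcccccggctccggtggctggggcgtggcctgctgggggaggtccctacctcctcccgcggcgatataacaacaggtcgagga
Des: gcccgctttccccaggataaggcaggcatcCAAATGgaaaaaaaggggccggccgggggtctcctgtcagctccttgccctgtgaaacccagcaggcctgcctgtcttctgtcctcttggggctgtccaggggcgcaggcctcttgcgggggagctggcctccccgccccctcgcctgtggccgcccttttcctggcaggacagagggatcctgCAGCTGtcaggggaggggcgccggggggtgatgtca
The E-boxes begin at positions -184 and -111 from the Krt8 start, at -214 in Krt18 and at -220 and -36 in Des, where the second is CAGCTG, a special case of CANNTG. Both strands were searched, and CANNTG occurred in 66.2% and CAGCTG in 13.1% of 32536 such windows of all annotated genes. The GC box GGGCGG, found in 33.0% of windows, occurred in Des at -87 and -69 and in neither keratin window. The ETS word GGAAGT (19.8% of windows) occurred in Krt8 at -205, and the AP-1 word TGANTCA (6.73%) and TATAAA (12.3%) were in none of the 3 windows. A match here is a match of letters only.

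In WT muscle Krt18 was close to the limit of detection. Cohort G WT mice 1 to 4 on placebo had 0.142, 0.113, 0.395 and 0.112 CPM, from 14, 4, 5 and 5 reads. Dnm2 S619L/+ mice 1 to 4 on placebo had 19.9, 49.7, 6.47 and 16.3 CPM, so every mutant mouse lay above every WT mouse, and mutant mice differed among themselves by 7.67-fold. The log2 fold change, the contrast that chose the gene, was 7.23, and it was 6.53 without mutant mouse 2 and 7.54 without mutant mouse 3. In bulk tissue, more cells that express a gene and more RNA per cell cannot be told apart, here or for any gene below.

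The genotypes were also compared on tamoxifen, in other mice than those of the contrast that chose Krt18. Krt18 passed the low-count filter only through the mutant groups, and earlier results of all these mice were known when it was chosen, so the comparison is not an independent test. WT mice on tamoxifen had 0.121, 0.14997, 0.0942 and 0.173 CPM of Krt18, and Dnm2 S619L/+ mice on tamoxifen had 22.1, 13.0, 20.5 and 14.6 CPM. The groups did not overlap, and the 4 treated mutant mice stood closer together than the 4 on placebo, 17.6 ± 4.47 against 23.1 ± 18.6 CPM (SD, n = 4 each). Krt18 rose by 6.98 on the log2 scale (SE 0.63, edgeR adjusted p = 5.53e-05) in mutant against WT mice on tamoxifen, and the call held in each of 16 fits that left out 1 mouse. Between mutant mice on tamoxifen and on placebo the log2 fold change of Krt18 was -0.39 (SE 0.41, edgeR adjusted p = 0.592) with overlapping groups, and it was 0.30 without placebo mouse 2, the highest of all. In WT mice the change with tamoxifen was -0.15 (SE 0.90, edgeR adjusted p = 0.916).

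Krt18 was also higher in the second model. Bin1 mck-/- mice 1 to 4 on placebo had 2.31, 3.70, 0.918 and 11.2 CPM, and cohort F WT mice 5 to 8 had 0.391, 0.209, 0.128 and 0.181 CPM. All 4 knockout mice lay above all 4 WT mice, with a 12.2-fold range among them. Krt18 rose by 4.28 on the log2 scale (SE 1.002, edgeR adjusted p = 0.0476). Here too it passed the low-count filter only through the group in which it was high, so this is not an independent test. Leaving out Bin1 mck-/- placebo mouse 1, 2 or 4, tamoxifen mouse 1, or WT mouse 5, 6, 7 or 8 ended the call (log2 fold changes 3.30 to 4.69, edgeR adjusted p = 0.0516 to 0.1497), as did using no low-count filter (adjusted p = 0.101). Bin1 mck-/- mice on tamoxifen had 0.131, 0.182, 0.233 and 1.90 CPM, so 3 of 4 sat in the WT range and mouse 4 stood above it and above placebo mouse 3. The tamoxifen log2 fold change was -2.88 (SE 0.91, edgeR adjusted p = 0.106). Without tamoxifen mouse 4 it was -4.61 with an adjusted p of 0.0272 by edgeR, and DESeq2 on all mice gave an adjusted p of 0.0381.

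**Figure D1:**
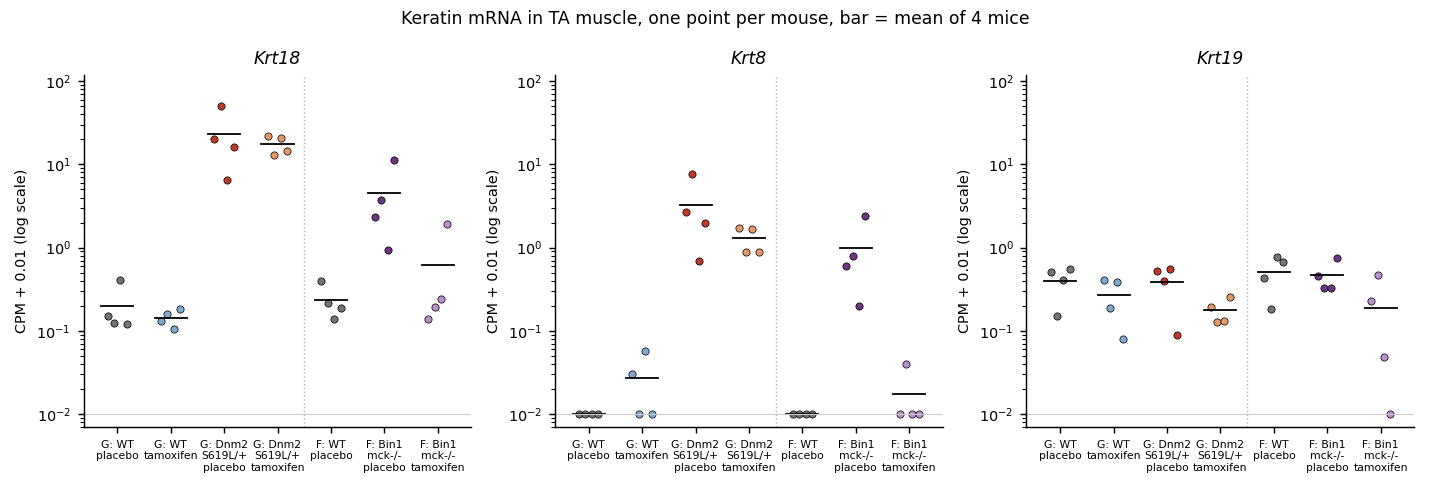
Krt8, Krt18 and Krt19 in each of the 28 mice, in CPM on a log axis after adding 0.01, by group, with each point a mouse and each bar the mean of 4. Krt18 of the 8 Dnm2 S619L/+ mice sits between 6.47 and 49.7 CPM, above every WT mouse, Krt8 is at 0 in all 8 WT mice on placebo, and Krt19 overlaps between groups.

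Krt8, the type II partner, had no read in any of the 8 WT mice on placebo. Dnm2 S619L/+ mice 1 to 4 on placebo had 2.68, 7.68, 0.679 and 1.94 CPM, from 119, 160, 15 and 49 reads, and the mice stood in the same order as for Krt18. Against the 3 reads that a count of 0 allows over the WT group, 0.0157 CPM, this is at least 194-fold higher, in the contrast that chose Krt18. A pseudogene copy, Krt8-ps, held 1 read over all mice.

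Treated Dnm2 S619L/+ mice had 1.72, 0.877, 1.68 and 0.864 CPM of Krt8, and treated WT mice had 0.0201, 0, 0.0471 and 0 CPM. This is 148 reads against 2, a ratio of 85.8 with a 95% interval of 23.3 to 715 that covers counting error only, and Krt8 was called higher (edgeR adjusted p = 0.00618) in all 16 fits that left out 1 mouse as well. Krt8 passed the low-count filter of cohort G only through the mutant groups, so this is not an independent test. Krt8 in treated against placebo mutant mice had a log2 change of -1.32 (SE 0.58, edgeR adjusted p = 0.174), with overlapping groups. In Bin1 mck-/- mice on placebo Krt8 was at 0.592, 0.772, 0.190 and 2.37 CPM, at least 44.6-fold above cohort F WT mice at the floor of 0.0233 CPM over the group. In treated Bin1 mck-/- mice it was at 0 in 3 mice and at 0.0303 CPM, 1 read, in mouse 2. The placebo to tamoxifen ratio was 113, from 139 reads against 1, with a counting interval of 19.97 to 4499. Krt8 was below the low-count filter in cohort F, and the exact permutation test gave p = 0.0286 for each of these 2 comparisons, the smallest p that 4 against 4 mice allow (two-sided). That test always returns its smallest p when the groups do not overlap, as here. Without the filter, edgeR gave adjusted p = 0.000280 for knockout against WT and 0.000649 for tamoxifen against placebo. These p-values rest on groups with at most 1 Krt8 read, so they are not independent tests either.

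Per kilobase of exon, Krt18 exceeded Krt8 in every mouse with at least 5 Krt8 reads. The ratio of Krt18 to Krt8 was 8.81 to 13.0 in Dnm2 S619L/+ mice on placebo, 16.6 to 23.0 in those on tamoxifen and 5.31 to 6.59 in Bin1 mck-/- mice on placebo. These 3 ranges did not touch, and the ratios between cohorts come from different library protocols. No test of the ratio was made.

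**Figure D2:**
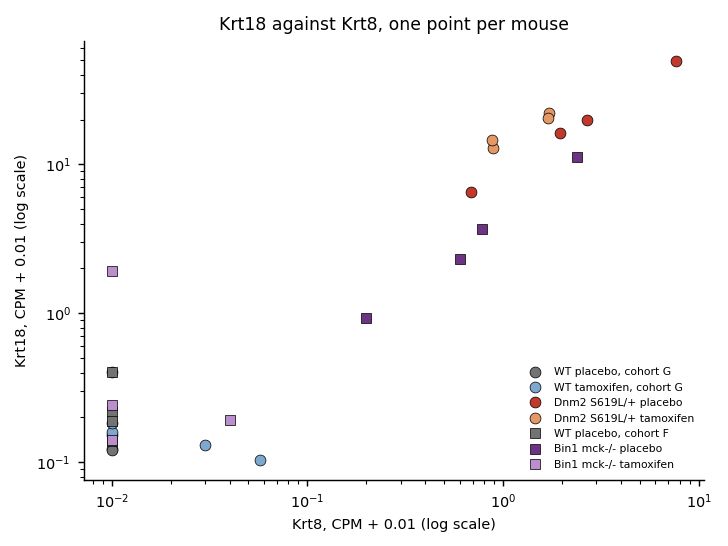
Krt18 against Krt8 in each mouse, both in CPM on log axes after adding 0.01, with 1 symbol per group. Mice with at least 5 Krt8 reads line up along a band, from Bin1 mck-/- placebo mouse 3 (0.190 CPM Krt8, 0.918 CPM Krt18) to Dnm2 S619L/+ placebo mouse 2 (7.68 and 49.7 CPM), WT mice lie at or below 0.0471 CPM of Krt8, and Bin1 mck-/- tamoxifen mouse 4 has 1.90 CPM of Krt18 with no Krt8 read.

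Krt19, the other type I partner of Krt8, did not follow Krt18. Its level was 0.381 ± 0.213 CPM in Dnm2 S619L/+ mice on placebo and 0.392 ± 0.177 CPM in WT mice on placebo (SD, n = 4 each), and over all 28 mice it ran from 0 to 0.768 CPM. The log2 fold changes were -0.06 in the contrast that chose Krt18, -0.59 in mutant against WT mice on tamoxifen (edgeR adjusted p = 0.646), -1.16 with tamoxifen in mutant mice (0.241), -0.62 with tamoxifen in WT mice (0.420), -0.14 in Bin1 mck-/- against WT mice (0.939) and -1.31 with tamoxifen in Bin1 mck-/- mice (0.360). It had 0 to 49 reads in a mouse.

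The comparison of genotypes on tamoxifen shares no mouse with the contrast that chose Krt18, the 2 comparisons of tamoxifen with placebo in cohort G each share 1 group with both, and those of cohort F use other mice and share the Bin1 mck-/- placebo group. Krt8 and Krt18 in cohort G and Krt18 in cohort F passed the low-count filter only through the groups in which they were high. In Dnm2 S619L/+ against WT mice on tamoxifen, 3 of 9 members were called, all higher (Krt8, Krt18 and Sync), beside 2.7% of 15439 genes, and 5 of 9 did not overlap, beside 10.7% of genes. With tamoxifen in Dnm2 S619L/+ mice 1 of 9 was called, lower (Nes), beside 8.27%, and 0 of 9 were free of overlap, beside 10.4%. With tamoxifen in WT mice 4 of 9 were called, 2 higher (Vim and Lmna) and 2 lower (Nes and Sync), beside 27.7%, and the same 4 did not overlap, beside 31.4%. In Bin1 mck-/- against WT mice 2 of the 8 tested were called, both higher (Krt18 and Lmna), beside 2.61% of 14841 genes, and 8 of 9, all but Krt19, did not overlap, beside 16.5%. With tamoxifen in Bin1 mck-/- mice 2 of 8 were called, both lower (Nes and Sync), beside 3.13%, and 3 of 9 (Krt8, Nes and Sync) did not overlap, beside 9.8%. In the contrast that chose Krt18, 21.9% of all genes were called and 24.9% did not overlap, and 6 of the 9 members (Krt8, Krt18, Des, Nes, Sync and Lmna) did not overlap.

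**Figure D3:**
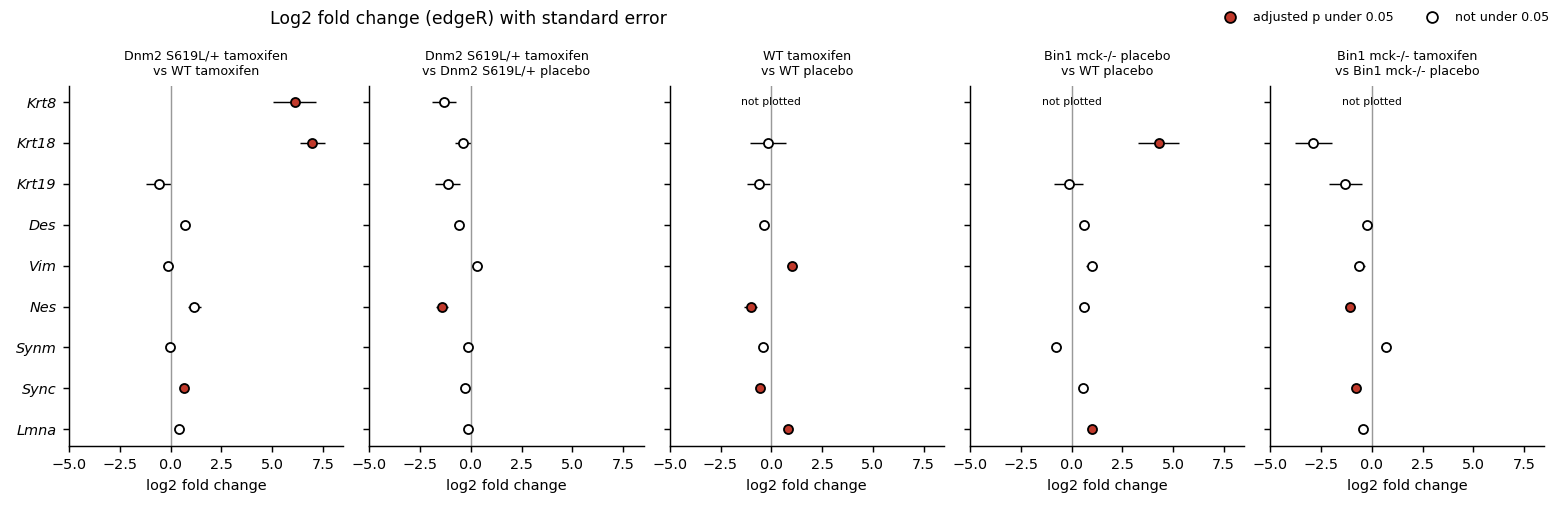
Log2 fold changes of the members in the 5 tested comparisons, 1 panel each, with bars for the standard error and red points for an edgeR adjusted p under 0.05. Krt18 stands at 6.98 in Dnm2 S619L/+ against WT mice on tamoxifen and at 4.28 in Bin1 mck-/- against WT mice, the other muscle filaments lie between -1.43 and 1.17 across the panels, and Krt8 is left out where a group was at 0 or it was below the count filter (its size in the first panel depends on the prior count).

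Desmin was by far the most abundant member. Per kilobase of exon it was at 740 ± 35.0 CPM in cohort G WT mice on placebo, whereas Krt18 was at 16.1 ± 12.9 and Krt8 at 1.66 ± 1.57 CPM per kilobase in Dnm2 S619L/+ mice on placebo (SD, n = 4 each), and Des there was at 1434 ± 415. In CPM, WT mice 1 to 4 had 2816, 2855, 2582 and 2856, and Dnm2 S619L/+ mice on placebo had 4986, 7390, 3632 and 5529. The groups did not overlap, mouse 2 was again the highest and mouse 3 the lowest mutant, and the log2 fold change was 0.96 in the contrast that chose Krt18. On tamoxifen, WT mice had 1784, 1992, 2137 and 2645 CPM and mutant mice 3642, 2849, 2858 and 4745 CPM. These groups did not overlap either, but the log2 change of 0.72 (SE 0.20) did not pass (edgeR adjusted p = 0.0685). DESeq2 called it (adjusted p = 0.0132).

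Tamoxifen in Dnm2 S619L/+ mice gave Des a log2 change of -0.61 (SE 0.20, edgeR adjusted p = 0.0716) and in WT mice one of -0.38 (SE 0.20, edgeR adjusted p = 0.173). In mutant mice Des was called by DESeq2 (adjusted p = 0.0367) and by edgeR without placebo mouse 3 (0.0252) or tamoxifen mouse 4 (0.0127), and in WT mice when only those groups were fitted (0.0476). In cohort F, WT mice had 3384, 3450, 3216 and 3339 CPM, and Bin1 mck-/- mice had 5636, 5342, 3540 and 5760 CPM on placebo and 4277, 3895, 3548 and 5495 CPM on tamoxifen. Every knockout mouse lay above every WT mouse, and mouse 3 on placebo, the lowest for Krt18 too, stood nearest to WT. The log2 fold change of knockout against WT was 0.60 (SE 0.17, edgeR adjusted p = 0.0682), with a DESeq2 adjusted p of 0.0103, and that of tamoxifen was -0.24 (SE 0.17, edgeR adjusted p = 0.453).

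**Figure D4:**
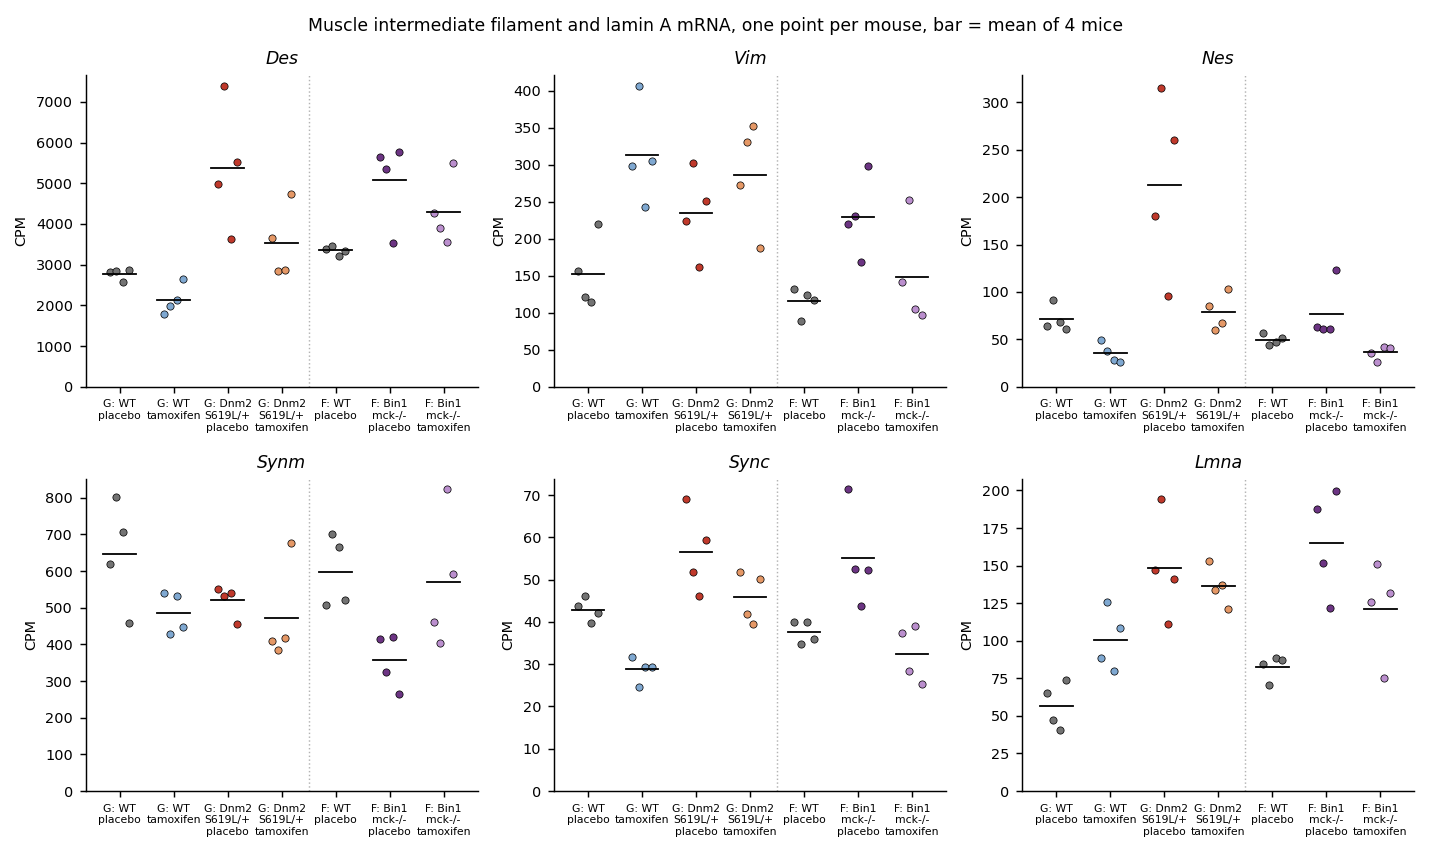
Des, Vim, Nes, Synm, Sync and Lmna in each of the 28 mice, in CPM, 1 panel per gene, with each point a mouse and each bar the mean of 4. Nes falls with tamoxifen in all 3 genotypes, from 213 to 78.8, 71.0 to 35.0 and 76.8 to 36.4 CPM on average, and Synm is the 1 panel in which the Bin1 mck-/- placebo mice lie below WT.

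Nestin fell with tamoxifen in each of the 3 genotypes. Dnm2 S619L/+ mice had 180, 315, 96.1 and 261 CPM on placebo and 84.6, 59.7, 67.4 and 103 CPM on tamoxifen. Only the highest treated mouse, mouse 4, overlapped the placebo group, at its lowest mouse, mouse 3. Nes fell by 1.43 on the log2 scale (SE 0.31, edgeR adjusted p = 0.0129). The call was lost without tamoxifen mouse 2 or 3 (adjusted p = 0.0559 and 0.0554) and when only the 2 groups were fitted (0.0929). WT mice had 64.1, 91.3, 67.8 and 60.9 CPM on placebo and 48.8, 37.8, 27.9 and 25.7 CPM on tamoxifen, without overlap. There Nes fell by 1.02 (SE 0.31, edgeR adjusted p = 0.0230). Leaving out placebo mouse 2 or tamoxifen mouse 2, 3 or 4, or using no low-count filter, ended that call (adjusted p = 0.0511 to 0.0815).

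Bin1 mck-/- mice had 62.5, 60.9, 60.6 and 123 CPM of Nes on placebo and 36.0, 26.3, 42.1 and 41.3 CPM on tamoxifen. The groups did not overlap, and 3 of the placebo mice stood between 60.6 and 62.5 CPM with mouse 4 far above them. Nes fell by 1.08 (SE 0.23, edgeR adjusted p = 0.0276). It was no longer called without tamoxifen mouse 3 or 4 (adjusted p = 0.0627 and 0.0594), with no low-count filter (0.0572) or when only these groups were fitted (0.0914). Cohort F WT mice had 57.1, 43.7, 46.7 and 51.3 CPM, so treated knockout mice lay below every WT mouse and placebo ones above. The genotype log2 fold changes of Nes were 1.58 in the contrast that chose Krt18, 1.17 on tamoxifen (SE 0.31, edgeR adjusted p = 0.0562; DESeq2 0.00561) and 0.63 in Bin1 mck-/- mice (SE 0.23, edgeR adjusted p = 0.143).

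Syncoilin moved by smaller steps with less spread. WT mice of cohort G had 43.7, 46.1, 39.7 and 42.1 CPM on placebo and 31.7, 24.7, 29.2 and 29.4 CPM on tamoxifen, and Sync fell by 0.58 (SE 0.13, edgeR adjusted p = 0.00361). Dnm2 S619L/+ mice had 69.1, 51.8, 46.1 and 59.4 CPM on placebo and 51.8, 41.9, 39.6 and 50.1 CPM on tamoxifen. All 4 treated mutants lay above all 4 treated WT mice, and Sync rose by 0.67 (SE 0.13, edgeR adjusted p = 0.00786) in that comparison, a call held in all 16 fits without 1 mouse. The contrast that chose Krt18 gave 0.40, and tamoxifen in mutant mice gave -0.30 (SE 0.12, edgeR adjusted p = 0.141). In cohort F, WT mice had 39.9, 34.7, 39.9 and 35.9 CPM, Bin1 mck-/- mice on placebo had 71.5, 52.4, 43.7 and 52.4 CPM and those on tamoxifen had 37.5, 28.3, 39.0 and 25.3 CPM. The knockout mice on placebo stood above both other groups. Sync fell by 0.76 with tamoxifen (SE 0.16, edgeR adjusted p = 0.0200), and not without placebo mouse 1 (0.0613) or when only these groups were fitted (0.0801). Knockout against WT gave 0.55 (SE 0.16, edgeR adjusted p = 0.0704; DESeq2 0.0344). The replicate block gave Sync an adjusted p of 0.0735 and Krt18 one of 0.0195 for tamoxifen in Bin1 mck-/- mice (edgeR).

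Synemin, the other desmin partner, went the other way in the Bin1 model. Bin1 mck-/- mice on placebo had 415, 324, 420 and 266 CPM and WT mice 507, 701, 665 and 521 CPM, with no overlap. The log2 fold change was -0.75 (SE 0.21) and missed the threshold (edgeR adjusted p = 0.0704), with a DESeq2 adjusted p of 0.0109. Treated knockout mice had 462, 405, 824 and 593 CPM, a log2 change of 0.68 against placebo (SE 0.21, edgeR adjusted p = 0.0929; DESeq2 0.0245). In cohort G the group means of Synm ran from 473 to 647 CPM and the groups overlapped in every comparison, with log2 fold changes of -0.31 in the contrast that chose Krt18, -0.04 between genotypes on tamoxifen (edgeR adjusted p = 0.933), -0.14 with tamoxifen in mutant mice (0.683) and -0.41 with tamoxifen in WT mice (0.106).

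Vimentin rose with tamoxifen in WT muscle. WT mice had 156, 121, 114 and 220 CPM on placebo and 298, 406, 243 and 305 CPM on tamoxifen, without overlap, and Vim rose by 1.03 (SE 0.25, edgeR adjusted p = 0.00678). Dnm2 S619L/+ mice had 224, 302, 162 and 250 CPM on placebo and 273, 331, 353 and 187 CPM on tamoxifen. The genotype log2 fold change was 0.62 on placebo, where the groups overlapped, and -0.13 on tamoxifen (SE 0.24, edgeR adjusted p = 0.817), and tamoxifen in mutant mice gave 0.28 (SE 0.25, edgeR adjusted p = 0.504). Bin1 mck-/- mice on placebo had 219, 231, 168 and 298 CPM, above the WT mice at 132, 88.7, 123 and 117 CPM, with a log2 change of 0.99 (SE 0.28, edgeR adjusted p = 0.0785; DESeq2 0.00442). Treated knockout mice had 141, 253, 105 and 96.6 CPM, a log2 change of -0.62 (SE 0.28, edgeR adjusted p = 0.234), which became -1.005 (adjusted p = 0.00968) without tamoxifen mouse 2. Vim is a fibroblast and leukocyte gene, and the 5 fibroblast markers (Pdgfra, Col1a1, Col3a1, Dcn and Lum) summed to 891 to 1214 CPM in WT mice on placebo and 9082 to 17744 CPM in WT mice on tamoxifen, while the 4 leukocyte markers summed to 17.5 to 29.1 and 58.2 to 153 CPM. In cohort F the fibroblast sum was 771 to 985 CPM in WT mice and 1649 to 4095 CPM in knockout mice on placebo. In treated knockout mice the fibroblast sum ran from 259 to 5782 CPM. The leukocyte sum in these cohort F groups was 12.4 to 19.6, 44.9 to 90.3 and 14.7 to 54.7 CPM, in the same order. The part of these cells in the Vim levels was not tested.

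Lamin A/C rose in Bin1 mck-/- mice and with tamoxifen in WT mice, and in Dnm2 S619L/+ mice it stood above WT on placebo, with overlap on tamoxifen. Cohort G WT mice had 65.2, 47.5, 40.4 and 74.1 CPM on placebo and 88.5, 126, 80.2 and 109 CPM on tamoxifen, without overlap, a rise of 0.82 (SE 0.20, edgeR adjusted p = 0.00693). Dnm2 S619L/+ mice had 147, 195, 111 and 141 CPM on placebo, all above WT, with a log2 change of 1.38 in the contrast that chose Krt18. Treated mutants had 153, 133, 137 and 121 CPM. Their lowest mouse overlapped the highest treated WT mouse, and the genotype log2 fold change on tamoxifen was 0.43 (SE 0.20, edgeR adjusted p = 0.262), and that of tamoxifen in mutant mice was -0.13 (SE 0.20, edgeR adjusted p = 0.734). In cohort F, WT mice had 84.6, 70.3, 88.8 and 86.9 CPM and Bin1 mck-/- mice on placebo 188, 152, 122 and 200 CPM, and Lmna rose by 1.0005 (SE 0.19, edgeR adjusted p = 0.0201). That call was lost without Bin1 mck-/- placebo mouse 1 or 4 or WT mouse 6, 7 or 8 (adjusted p = 0.0581 to 0.0932). Treated knockout mice had 126, 151, 75.5 and 132 CPM, a log2 change of -0.45 against placebo (SE 0.19, edgeR adjusted p = 0.202).

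**Figure D5:**
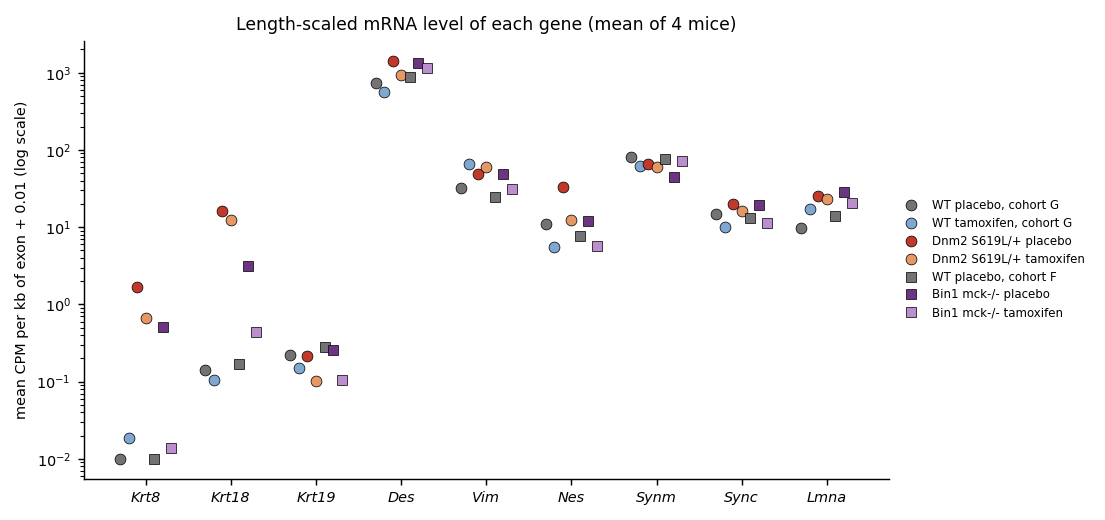
Mean level of each member per group in CPM per kilobase of exon, on a log axis after adding 0.01, the scale on which genes can be compared with one another. Des leads in all groups (740 in cohort G WT mice on placebo), and Krt18 moves from 0.133 in WT to 16.1 in Dnm2 S619L/+ mice on placebo, near Nes (33.2), Lmna (25.5) and Sync (19.8) in those mice.

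Of 23 other keratins, Krt80, a keratin of stratified and cornified epithelia, stood above WT in both models. It was at 15.2 ± 8.01 CPM in Dnm2 S619L/+ and 1.60 ± 0.518 CPM in WT mice on placebo (SD, n = 4 each), in the contrast that chose Krt18. With tamoxifen in mutant mice it fell by 1.77 to 4.44 ± 0.637 CPM (SE 0.35, edgeR adjusted p = 0.00824). By edgeR it was the only 1 of the 5 other keratins tested that was called there, beside 8.27% of all genes. At an unadjusted p under 0.05 there were 3 of the 5, and DESeq2 called 2. In Bin1 mck-/- mice Krt80 rose by 2.42 (SE 0.40, edgeR adjusted p = 0.0119), from 1.47 ± 0.325 to 7.92 ± 4.45 CPM, the only 1 of 3 tested that was called, beside 2.61% of all genes. In WT mice on tamoxifen 2 of 5 were called, both higher, where 27.7% of all genes were called, and both had passed the low-count filter through the tamoxifen groups. Krt75, a keratin of hair follicles, had no read in WT mice on placebo and 318 reads on tamoxifen, at least 152-fold higher (edgeR adjusted p = 0.00164), and Krt79 rose by 2.35 to 0.406 CPM (SE 0.79, edgeR adjusted p = 0.0340). By edgeR 0 of 5 were called between genotypes on tamoxifen (2 at an unadjusted p under 0.05, and 1 by DESeq2) and 0 of 3 with tamoxifen in Bin1 mck-/- mice (1 and 1). Krt7, a keratin of simple epithelia below the filter, was at 0.776 ± 0.457 CPM in Dnm2 S619L/+ and 0.148 ± 0.169 CPM in WT mice on placebo, and Krt5 and Krt14, the pair of basal epidermis, averaged 0 and 0.0113 CPM in those mutants.

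Of 17 nuclear lamina and nuclear envelope genes other than Lmna, all tested, edgeR called 0 between genotypes on tamoxifen, in Bin1 mck-/- against WT mice and with tamoxifen in Bin1 mck-/- mice. At an unadjusted p under 0.05 there were 3, 3 and 2, and DESeq2 called 0 in each. The medians of their log2 fold changes there were -0.07, -0.05 and 0.12, beside -0.03, 0.01 and -0.00 over all genes. Banf1, which bridges chromatin and the lamina, fell by 0.49 with tamoxifen in Dnm2 S619L/+ mice (SE 0.14, edgeR adjusted p = 0.0453) and by 0.51 in WT mice (SE 0.14, edgeR adjusted p = 0.0161). Also in WT mice the nesprin gene Syne2 fell by 0.45 (SE 0.13, edgeR adjusted p = 0.0194) and Nrm, encoding nurim, rose by 0.78 (SE 0.23, edgeR adjusted p = 0.0188).

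Of 17 listed filament linkers and chaperones in the tables, 16 were tested in cohort G and 15 in cohort F. Between genotypes on tamoxifen 2 rose and 0 fell, with a list median of 0.07 beside -0.03 over all genes. Dsp encodes desmoplakin, which anchors keratin and desmin filaments to desmosomes, and it had 38 reads in the 4 treated mutants and 1 in the 4 treated WT mice (edgeR adjusted p = 0.00299), a ratio of 44.0 with a counting interval of 7.44 to 1784. It passed the low-count filter only through the mutant groups. In cohort F Dsp had 1 read in the 4 Bin1 mck-/- placebo mice, 2 in the 4 on tamoxifen and 0 in WT mice. Hspb1, a small heat shock protein that binds filaments, rose by 1.49 (SE 0.36, edgeR adjusted p = 0.0401), from 13.1 ± 6.26 to 36.7 ± 13.1 CPM. In WT mice on tamoxifen 2 rose and 2 fell of 16, where 27.7% of all genes were called. The linker genes Plec and Dst fell by 0.37 and 0.48 (edgeR adjusted p = 0.0141 and 0.00679), and Dtnb, a dystrobrevin gene, rose by 0.93 (0.0282). With tamoxifen in Dnm2 S619L/+ mice and in the 2 Bin1 mck-/- comparisons edgeR called 0 (4, 3 and 5 at an unadjusted p under 0.05, and 3, 1 and 5 by DESeq2), with list medians of -0.15, 0.12 and -0.14. Of 8 filament genes of neurons, glia and lens, 2 were tested, and both rose with tamoxifen in WT mice, Prph by 2.35 (edgeR adjusted p = 0.0188) and Bfsp1 by 1.72 (0.00880). In the other 4 comparisons edgeR and DESeq2 called 0 of the 2, and 1 had an unadjusted p under 0.05 in each of the 2 Dnm2 S619L/+ comparisons and 0 in those of Bin1 mck-/- mice.

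Since Krt8 and Krt18 are epithelial keratins, markers of cells that normally make them were read beside them. Of 9 epithelial markers, Cldn7 had no read in Dnm2 S619L/+ mice on placebo and Cldn4 none in WT mice on placebo. Epcam, Elf3 and Ovol1 averaged 0.110, 0.593 and 0.0685 CPM in those mutants and 0.00253, 0.211 and 0.0218 CPM in WT. Cdh1 and Cldn7 were lower in the mutants, at 0.463 and 0 CPM against 0.535 and 0.0132 CPM. The 9 together summed to 0.9498 to 2.67 CPM in those mutants and 0.689 to 1.30 CPM in WT. In Bin1 mck-/- mice on placebo the sum was 0.579 to 1.12 CPM with Esrp1 and Cldn4 at 0, against 0.592 to 1.05 CPM in WT. In Bin1 mck-/- mice on tamoxifen it was 0.110 to 0.504 CPM, below every placebo mouse of both genotypes. Krt8 there was also below every Bin1 mck-/- placebo mouse, but it was at 0 in the WT mice of cohort F. In cohort G on tamoxifen the epithelial sum was 0.803 to 1.32 CPM in Dnm2 S619L/+ and 0.235 to 0.824 CPM in WT mice, which overlapped. The 6 mesothelial markers summed to 6.47 to 18.05 CPM in Dnm2 S619L/+ and 1.21 to 1.74 CPM in WT mice on placebo, to 2.78 to 5.98 and 1.04 to 3.74 CPM on tamoxifen, and to 2.53 to 6.90 CPM in Bin1 mck-/- and 0.696 to 1.14 CPM in WT mice of cohort F. Most of this in Dnm2 S619L/+ mice on placebo was Msln (11.7 CPM, against 0.322 in WT), which rose by 1.93 between genotypes on tamoxifen (edgeR adjusted p = 0.0132) and by 3.502 in Bin1 mck-/- against WT mice (0.0236), and Upk3b was at 0 in all 16 mice of cohort G.

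Markers of regenerating or denervated fibers had higher sums in both models. Their 8 genes (Myh3, Myh8, Myog, Myod1, Chrng, Chrna1, Ncam1 and Mymk) summed to 52.8 to 67.8 CPM in WT and 115 to 233 CPM in Dnm2 S619L/+ mice on placebo, to 66.3 to 91.0 and 130 to 198 CPM on tamoxifen, and to 63.5 to 82.1 CPM in WT, 88.9 to 177 CPM in Bin1 mck-/- placebo and 66.5 to 142 CPM in Bin1 mck-/- tamoxifen mice. Of the 8, Chrng passed the low-count filter of cohort G only through the mutant groups. It was at 0 to 0.270 CPM in treated WT and 0.741 to 4.72 CPM in treated mutant mice. A count of calls that includes it is not an independent test. Between genotypes on tamoxifen 4 of 8 were called, all higher (2.7% of all genes), in Bin1 mck-/- against WT mice 2 of 8, both higher (2.61%), and with tamoxifen in Bin1 mck-/- mice 1 of 8, lower (3.13%). In that last comparison 5 of the 8 had an unadjusted p under 0.05 and DESeq2 called 3. The list median of the log2 fold changes there was -1.11, beside -0.0007 over all genes. With tamoxifen in WT mice 2 of 8 were called (27.7% of all genes), Ncam1 higher, from 8.61 to 42.2 CPM, and Chrna1 lower, from 22.5 to 6.10 CPM. In Dnm2 S619L/+ mice 1 of 8 was called with tamoxifen (8.27%), Myh8, which rose from 9.79 to 19.2 CPM. Krt8 and Krt18 were not called in either of these. Myog, of the same list, averaged 4.59 CPM in WT and 34.5 CPM in Dnm2 S619L/+ mice on placebo, and 2.96 and 23.7 CPM on tamoxifen. In cohort F Myog averaged 5.76 CPM in WT, 27.9 CPM in Bin1 mck-/- placebo and 10.7 CPM in Bin1 mck-/- tamoxifen mice. Myh3 averaged 6.47, 6.21 and 8.18 CPM in those cohort F groups, in the same order, and Myod1 23.9, 23.05 and 10.05 CPM. The 3 satellite cell markers (Pax7, Myf5 and Calcr) went the other way. Their median sum was 1.99 CPM in Dnm2 S619L/+ and 8.16 CPM in WT mice on placebo. In cohort F it was 2.76 CPM in Bin1 mck-/- placebo and 7.27 CPM in WT mice. Neither pair of groups overlapped. By edgeR 1 of 3 was lower between genotypes on tamoxifen, and 2 of 3 in Bin1 mck-/- against WT mice. The part of any of these cells or fibers in the keratin and nestin levels was not tested.

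Other cell types moved in the tamoxifen comparisons of cohort G, where Nes was called in both genotypes and Sync, Vim and Lmna in WT mice alone. The 5 osteoblast and osteocyte markers (Ibsp, Bglap, Sp7, Dmp1 and Alpl) summed to 28.7 to 56.6 CPM in WT mice on placebo and 294 to 923 CPM on tamoxifen, and to 9.74 to 18.2 and 46.8 to 527 CPM in Dnm2 S619L/+ mice, and all 5 rose in both comparisons. Of the 5 fibroblast markers 5 rose in WT and 3 in Dnm2 S619L/+ mice. Of all genes, 27.7% were called with tamoxifen in WT mice and 8.27% in Dnm2 S619L/+ mice. Of the 5 muscle fiber markers edgeR called 0 with tamoxifen in WT mice, with 5 at an unadjusted p under 0.05, 3 called by DESeq2 and a median log2 fold change of -0.43. The osteoblast sum in Bin1 mck-/- mice was 24.4 to 38.5 CPM on placebo and 18.1 to 292 CPM on tamoxifen. The part of these cells in the Nes, Sync and Lmna levels was not tested.

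By Pearson's r of log2 CPM with Krt18 over the 16 mice of cohort G, Krt8 was the most similar of 15438 genes (r = 0.98), followed by Zfp365 (0.97), Gm15935 (0.97), Eda2r (0.96) and Gadd45a (0.96). These r values are a description over mice that fall into mutant and WT groups. With the group means removed they were 0.78 for Krt8, 0.68 for Zfp365, 0.28 for Gm15935, 0.47 for Eda2r and 0.41 for Gadd45a, and over the 12 mice of cohort F they were 0.70 for Zfp365, 0.85 for Eda2r and 0.44 for Gadd45a. Eda2r, a receptor of the tumor necrosis factor family, was at 111 ± 36.1 CPM in Dnm2 S619L/+ and 9.74 ± 1.93 CPM in WT mice on placebo and at 40.0 ± 21.4 against 5.62 ± 1.22 CPM in cohort F (SD, n = 4 each). Gadd45a, a stress response gene, was at 91.6 ± 15.1 against 25.3 ± 3.75 CPM in cohort G and at 38.1 ± 12.1 against 33.2 ± 5.91 CPM in cohort F. Of the other members Des ranked 460 (r = 0.79), Lmna 644 (0.76), Nes 894 (0.72) and Sync 1050 (0.70), and Vim, Krt19 and Synm ranked 4891, 9559 and 10976.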

How the data were processed

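RNA of 28 tibialis anterior muscles was sequenced as stranded poly(A) libraries. The deposited values are raw gene counts, 1 table per cohort. Per the submitters' processing notes the authors used bcl2fastq 2.20.0.422, cutadapt 1.10, Bowtie 1.2.2, STAR 2.5.3 and HTSeq 0.6.1p1, with the build mm39. In cohort F, 4 lines name no gene and held 22.0 to 30.8% of counts, and these were left out of library sizes and tests. Counts were scaled to CPM of gene reads with library sizes adjusted by TMM. Lengths are exon unions of GENCODE M21, and sequences are RefSeq on GRCm38.p6, and no coordinates were carried between builds.

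Each cohort was fitted alone in edgeR 4.0.16 (R 4.3.3) with filterByExpr (minimum count 10), TMM scaling, robust glmQLFit and glmQLFTest, with an adjusted p under 0.05 called. Log2 fold changes used a prior count of 0.125. Alternatives were DESeq2 1.42.0, RLE scaling, no filter, no mitochondrial genes, only the groups compared, a replicate block and leaving out each mouse. Other computations used pandas 2.3.3, numpy 2.4.6 and scipy 1.17.1. Low-count ratios have 95% counting intervals, which cover counting error only, and a count of 0 was set at a floor of 3 reads over the group.

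Members and gene lists were chosen with earlier results of these data known. Named are all 9 members, in each filament list the called genes (at most 3 per comparison by p), and the 5 genes most correlated with Krt18. Krt5, Krt7, Krt14, Msln, Gpm6a, Epcam, Cdh1, Elf3, Ovol1, Ncam1, Chrna1, Chrng, Myog, Myod1, Myh3 and Myh8 were named after their values were seen. The replicate numbers are mouse names: deviations of same-numbered mice correlated from -0.325 to 0.335 in cohort G and from -0.175 to 0.149 in cohort F, so they do not pair the mice.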

Additional observations from a re-analysis of the deposited data

Results flagged for a closer look

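Of 63 groups of 4 mice (9 members in 7 groups), 6 had a mouse set apart from the other 3 by Dixon's test, where chance flags about 1 in 20 groups. Groups with Krt8 at 0 in all 4 mice could not be tested. A single read among zeros is always flagged, so that rate does not hold for Krt8 in treated Bin1 mck-/- mice. In cohort G WT mice on placebo, mouse 3 was high for Krt18 (0.395 CPM, others 0.112 to 0.142) and low for Des (2582 CPM, others 2816 to 2856), and it is the shallowest library of the series. In Dnm2 S619L/+ mice on tamoxifen, mouse 4 was high for Synm (677 CPM, others 385 to 419). In Bin1 mck-/- mice on tamoxifen, mouse 2 held the 1 read of Krt8 (0.0303 CPM, others 0) and mouse 4 was high for Krt18 (1.90 CPM, others 0.131 to 0.233). In Bin1 mck-/- mice on placebo, mouse 4 was high for Nes (123 CPM, others 60.6 to 62.5).

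For 2 members every treated mouse lay on one side of the placebo mean in WT mice of cohort G and on the opposite side in Bin1 mck-/- mice. Of these 4 differences edgeR called 1, that of Lmna in WT mice. For Synm the mean difference in log2 CPM was -0.39 in WT and 0.65 in Bin1 mck-/- mice, a gap of -1.04. For Lmna it was 0.85 in WT and -0.47 in Bin1 mck-/- mice, a gap of 1.32. The difference was not tested, and the 2 comparisons come from cohorts with different library protocols.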

How the results depend on the processing

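With DESeq2 the members called became 5 between genotypes on tamoxifen, 2 with tamoxifen in Dnm2 S619L/+ mice, 7 in Bin1 mck-/- against WT mice and 5 with tamoxifen in Bin1 mck-/- mice (3, 1, 2 and 2 in edgeR), and the genes called became 918, 1149 and 1166 between genotypes on tamoxifen and in the Bin1 mck-/- comparisons (417, 388 and 464 in edgeR). With only the groups compared, the members called were 0 with tamoxifen in Dnm2 S619L/+ mice, 6 in Bin1 mck-/- against WT mice and 0 with tamoxifen in Bin1 mck-/- mice, and the genes called 30, 1458 and 122. With no low-count filter 4 members were called in Bin1 mck-/- against WT mice, and 814 genes, not 1277, with tamoxifen in Dnm2 S619L/+ mice. Xist status as a covariate, chosen after seeing the data, gave 515 genes there. The cause of these differences was not tested. The replicate block gave 843 genes with tamoxifen in Dnm2 S619L/+ mice and 152 in Bin1 mck-/- mice, with members called at 1 and 2 as without it. The mice share only a number, and the block changed no member's call other than those of Sync and Krt18 with tamoxifen in Bin1 mck-/- mice.

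Leaving out 1 mouse at a time, the members called ranged from 3 to 5 between genotypes on tamoxifen, 0 to 2 with tamoxifen in Dnm2 S619L/+ mice, 3 to 5 with tamoxifen in WT mice, 0 to 5 in Bin1 mck-/- against WT mice and 1 to 5 with tamoxifen in Bin1 mck-/- mice. The genes called ranged from 182 to 623, 368 to 2562, 2769 to 4825, 18 to 759 and 160 to 1253 in the same order, and from 2034 to 3953 in the contrast that chose Krt18. The lowest counts came without Dnm2 S619L/+ tamoxifen mouse 1 (182) or 3 (368), WT placebo mouse 8 of cohort F (18) and Bin1 mck-/- tamoxifen mouse 3 (160), and the highest without Dnm2 S619L/+ tamoxifen mouse 4 (2562) and Bin1 mck-/- tamoxifen mouse 2 (759 and 1253).

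Log2 fold changes that turned sign were never called. Between genotypes on tamoxifen, Synm became 0.055 with Xist status, 0.02, 0.046 and 0.01 without mutant mouse 1, 2 or 3 and 0.01 and 0.0060 without WT mouse 1 or 3, and Vim became 0.027 without mutant mouse 4 and 0.02 without WT mouse 2, while the lowest values were -0.26 for Synm without mutant mouse 4 and -0.25 for Vim without mutant mouse 3. With tamoxifen, without placebo mouse 2, Krt18 became 0.30 and Lmna 0.030 in Dnm2 S619L/+ mice (-0.70 and -0.24 without placebo mouse 3), and Krt18 in WT mice became 0.10 without placebo mouse 3 (-0.28 without mouse 4). Krt19 in Bin1 mck-/- against WT mice became 0.12 and 0.01 without WT mouse 7 or 8 (-0.49 without knockout mouse 4). Depth limits Krt8, which had 0 to 160 reads in a mouse, and Krt19, which had 0 to 49.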

Other observations

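The chaperones of desmin are further members of the fixed linker list and are named here after their values were seen. Cryab, the alpha-B crystallin gene, was at 1918 ± 750.4 CPM in Dnm2 S619L/+ and 884 ± 278 CPM in WT mice on placebo, in the contrast that chose Krt18, and at 2407 ± 546 CPM in Bin1 mck-/- and 1444 ± 555 CPM in WT mice (SD, n = 4 each). By edgeR Cryab was called in none of the 5 tested comparisons, with log2 fold changes of 0.82 between genotypes on tamoxifen (edgeR adjusted p = 0.126), -0.69 with tamoxifen in Dnm2 S619L/+ mice (0.127), -0.39 with tamoxifen in WT mice (0.304), 0.74 in Bin1 mck-/- against WT mice (0.162) and -0.83 with tamoxifen in Bin1 mck-/- mice (0.119). Bag3, a co-chaperone of filament turnover at the Z-disc, was not called by edgeR in any of them either, and its log2 fold changes ran from -0.51 with tamoxifen in Bin1 mck-/- mice (edgeR adjusted p = 0.0734) to 0.30 between genotypes on tamoxifen (0.292).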
